A study of Mus musculus with 2 samples.

Results

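The cytosolic ribosomal protein genes were taken as every gene symbol of the deposited count table that matched the naming pattern of the family (Rpl or Rps with a number, Rplp0 to Rplp2, and Rpsa), with the model with most reads standing for a symbol. The pattern took 85 of the 30744 symbols. They comprised 77 canonical genes (43 of the large 60S subunit, 3 of its P stalk and 31 of the small 40S subunit) and 8 paralogs, Rpl3l, Rpl7l1, Rpl10l, Rpl22l1, Rpl36al, Rpl39l, Rps4l and Rps27l. All 85 had at least 20 reads over both libraries, the minimum at which a gene was taken as measured, which 16326 symbols met.

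The series holds 1 RNA-seq library of a kidney tumour and 1 of a normal kidney, and its title concerns the circadian clockwork of kidney tumours induced by reprogramming in vivo. The tumour came from an animal with the genotype label Tet-OSKM/mPer2-luc that had received doxycycline, and the normal kidney from an animal labelled WT without doxycycline, both on a C57BL/6 x DBA/2 F1 background. Rosa26-M2rtTA is a doxycycline-dependent activator expressed from the widely active Rosa26 locus, TetO-OSKM is the cassette of Oct4, Sox2, Klf4 and c-Myc that it switches on, and mPer2-luc reports the activity of the clock gene Per2 by luciferase light. Per the labels, stem cells with these 3 constructs were injected into hybrid blastocysts, so the animals were chimeras in which transgenic and host cells are mixed. The labels attach that protocol to both libraries, and whether the normal kidney came from a chimera, the age and sex of the animals, the dose and length of treatment and any pooling are not given in the sources used here. Total RNA was depleted of ribosomal RNA before sequencing, so transcripts were not selected by their poly(A) tails.

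A cytosolic ribosome joins ribosomal RNA to a fixed set of proteins, most of them present in a single copy per particle, and its canonical protein genes are among the most strongly transcribed in any cell. Their mRNAs begin with a tract of pyrimidines, the 5′ terminal oligopyrimidine or TOP motif, through which translation is tuned by mTOR and the RNA-binding protein Larp1. In mammals most of the genes exist as 1 intron-bearing gene with many processed pseudogenes, and a few have an expressed paralog that is often restricted to testis, muscle or other tissues. In the kidney, as elsewhere, they serve cell growth and division.

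Counted reads came to 20836819 in the tumour library and 29258428 in the normal library. Ratios are tumour over normal after scaling with TMM, a method that sets the bulk of genes to a ratio near 1, with exact 95% intervals that cover counting error only. A call of higher or lower needed a ratio of 2-fold or more with an interval that left out 1. Since each group is a single library, no difference has a replicate check, and the values compare these 2 libraries and not the conditions. By these calls 31.2% of the measured genes were higher in the tumour library and 28.0% were lower, with a median log2 ratio of 0.08. Higher calls made up 52.8% of all calls, and 67.6% with plain CPM (counts scaled to the counted reads of the library alone), under which the median of all genes was 0.64. Nephron markers were called lower for 6 of 7 genes and summed to 696 scaled CPM in the tumour and 23955 CPM in the normal library, and Nphs1 of podocytes, with 34.9 and 35.5 CPM, was the exception. Pluripotent markers were called higher for 4 of 4 genes (1259 CPM in the tumour and 0.0829 CPM in the normal library, where Pou5f1 and Sox2 had 0 reads). Pou5f1, which encodes Oct4, and Sox2 are also genes of the cassette, and reads of cassette and endogenous copies were not told apart. Outside the cassette, Lin28a had 12152 reads in the tumour and 1 in the normal library, and Nanog 4507 and 1. The markers of dividing cells Top2a and Mki67 were called higher for 2 of 2 (2057 and 22.4 CPM). Leukocyte markers summed to 197 CPM in the tumour and 32.6 CPM in the normal library, of which Lyz2 alone had 157 and 13.8 CPM. Lyz2 and Cd68 were called higher, whereas Ptprc (481 and 387 reads), Cd79a (3 and 1) and Cd3e (7 and 3) were not called. Endothelial markers summed to 81.8 and 251 CPM. Among them Kdr was called lower, whereas Pecam1 (1466 and 1826 reads) and Cdh5 (363 and 637) were not called. Of the liver or yolk sac markers, Alb had 0 reads in the tumour and 260 in the normal library and Afp 65 and 48. The part of these markers in the ribosomal protein results was not tested. In whole tissue, fewer cells of a type and less RNA per cell cannot be told apart.

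The canonical ribosomal protein genes were higher in the tumour library almost throughout. Of 77 genes, 75 were called higher (97.4%, against 31.2% of all measured genes), 0 were called lower (against 28.0%), and 2, Rpl29 and Rps16, were between. The median ratio was 3.73-fold, or 1.90 on the log2 scale. Their reads took 6.57% of all counted reads in the tumour library and 1.19% in the normal library (Clopper-Pearson intervals 6.56% to 6.59% and 1.18% to 1.19%). Both libraries carried other large shifts in composition. Rn45s, the precursor of ribosomal RNA, took 2.73% of the tumour reads and 0.304% of the normal reads, and models of the mitochondrial chromosome took 1.22% and 10.6%. The part of these shifts in the shares of ribosomal protein reads was not tested.

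**Figure D1:**
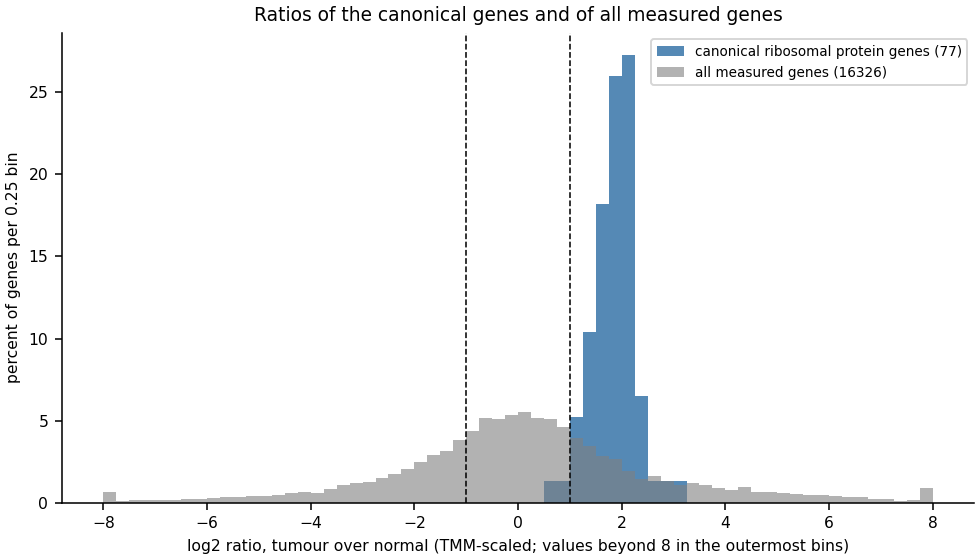
Distribution of the log2 ratio, tumour over normal, of the 77 canonical ribosomal protein genes (blue) and of all 16326 measured genes (grey), as percent of the genes in each bin of 0.25. Dashed lines mark 2-fold in either direction. The canonical genes lie between 0.64 and 3.06, whereas all measured genes spread to both sides of 0.

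The genes also lay close together. The middle 50% of the canonical genes spanned log2 ratios of 1.57 to 2.07, an interquartile range of 0.50, while that of all measured genes ran between -1.21 and 1.43, a range of 2.64. Of the 77 genes, 56 were at least 3-fold and 29 at least 4-fold higher. The 46 proteins of the large subunit with its stalk had a median log2 ratio of 1.82, with 45 called higher, and the 31 of the small subunit one of 1.99, with 30 called higher. The genes are spread over 18 autosomes and the X chromosome. All 4 canonical genes on the X chromosome (Rpl10, Rpl36a, Rpl39 and Rps4x) were called higher, with a median of 1.94, as were 71 of the 73 autosomal genes, with a median of 1.90.

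**Figure D2:**
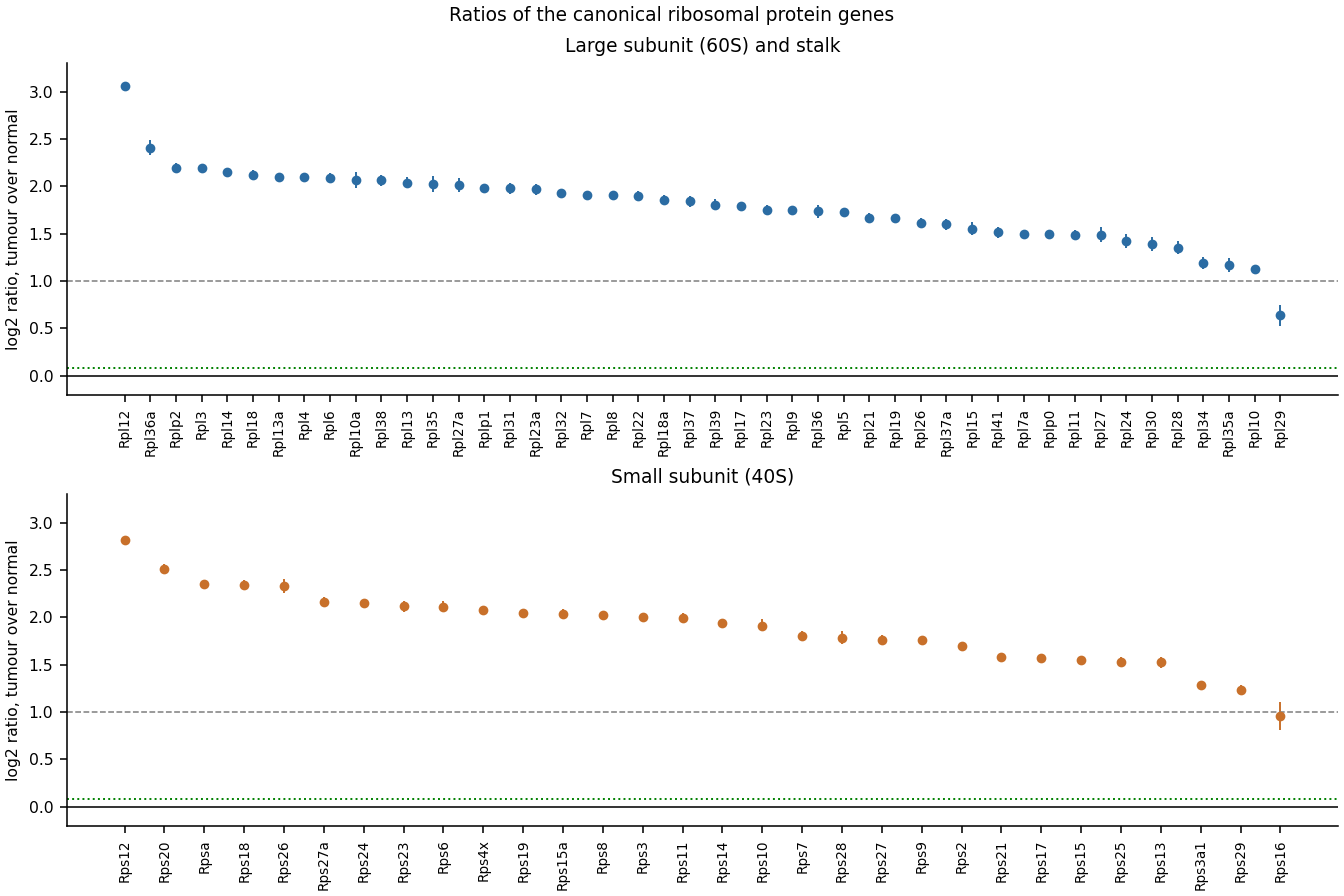
Log2 ratio, tumour over normal, of the canonical genes reported here, with large subunit and stalk genes in the upper panel and small subunit genes in the lower, ordered by ratio. Bars are 95% counting intervals, the dashed line marks 2-fold and the dotted line the median of all measured genes, 0.08. All points lie above the dotted line, and only Rpl29 and Rps16 lie below the dashed line.

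Among large subunit proteins, Rpl12 had the highest ratio. This protein forms the base on which the P stalk stands. Rpl12 (mm10 chromosome 2, 32961712 to 32964045) had 41747 reads in the tumour and 4778 reads in the normal library, and was 8.34-fold higher (8.09 to 8.59), 2.24 times the median ratio of the canonical genes. It stood apart from the next gene, Rpl36a of the tRNA exit site (X chromosome, 134585654 to 134588062), which had 8700 and 1566 reads and was 5.30-fold higher (5.02 to 5.596). Rpl3, which lines the peptidyl transferase centre, had 35032 reads in the tumour and 7315 in the normal library and was 4.57-fold higher. Rpl14 (23687 and 5099 reads, 4.43-fold) and Rpl18 (18805 and 4122 reads, 4.35-fold) followed.

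At the other end of the large subunit, Rpl29 was 1.56-fold higher (1.44 to 1.68) and did not reach the 2-fold mark, which it passed with plain CPM. Rpl29, a basic protein also known to bind heparin (chromosome 9, 106429539 to 106431567), had 1810 reads in the tumour and 1110 in the normal library. Rpl10, which in yeast joins the large subunit late, in the cytoplasm, had 16950 and 7407 reads and was 2.18-fold higher (2.12 to 2.24). Rpl35a, mutated in some families with Diamond-Blackfan anaemia, had 4648 reads in the tumour and 1974 in the normal library, a ratio of 2.25-fold. Rpl34 (6878 and 2876 reads, 2.28-fold) and Rpl28 (5914 and 2210 reads, 2.55-fold) completed the lower end. All 5 genes lay below the first quartile of the canonical genes.

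The pair Rpl5 and Rpl11, which join the 5S ribosomal RNA and, when free, bind the p53 regulator Mdm2, were both called higher. Rpl5 had 20145 reads in the tumour and 5781 in the normal library and was 3.32-fold higher (3.23 to 3.42). Rpl11 had 13039 and 4429 reads and was 2.81-fold higher (2.71 to 2.91).

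The P stalk recruits elongation factors and activates their GTPase, and all 3 of its genes were called higher, with a median log2 ratio of 1.99. Rplp0, the scaffold, had 32466 reads in the tumour and 11009 in the normal library and was 2.81-fold higher (2.75 to 2.88). Rplp1 had 31457 and 7576 reads and was 3.96-fold higher (3.86 to 4.06). Rplp2, the partner of Rplp1 in the stalk dimers, had 14975 and 3123 reads and was 4.57-fold higher (4.40 to 4.76). The 3 counting intervals do not overlap, so the scaffold and its dimer partners differed in ratio by more than the counting error of independent reads.

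In the small subunit Rps12 had the highest ratio, second to Rpl12 among all canonical genes. Rps12, a protein of the subunit's beak region that in Drosophila takes part in the competition between cells with unequal ribosomal protein gene dose, had 38418 reads in the tumour and 5205 in the normal library (chromosome 10, 23785183 to 23787209). Its ratio was 7.04-fold (6.84 to 7.25). Rps20, a protein of the subunit's head, had 23163 and 3881 reads and was 5.69-fold higher (5.50 to 5.89). Rpsa, also known as a laminin receptor precursor, had 33430 reads in the tumour and 6268 in the normal library and was 5.09-fold higher. Rps18 of the subunit's head (19372 and 3656 reads, 5.05-fold) and Rps26 of the mRNA exit channel (10473 and 1987 reads, 5.03-fold) had intervals that overlap each other and that of Rpsa.

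Of the proteins with known roles in signalling, Rps6, the substrate of the S6 kinases, had 13409 reads in the tumour and 2964 in the normal library and was 4.32-fold higher (4.15 to 4.49). Rps27a, made as a fusion with ubiquitin, had 16390 and 3493 reads and was 4.48-fold higher (4.32 to 4.64).

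The lower end of the small subunit was led by Rps16, whose tail reaches the tRNA in the decoding site. Rps16 (chromosome 7, 28350689 to 28352698) had 1096 reads in the tumour and 539 in the normal library. Its ratio of 1.94-fold (1.75 to 2.16) was just under the 2-fold mark, which lay inside its interval. With plain CPM, header totals or RPKM it was called higher, with RPKM by the ratio alone and without an interval. It was also among the least abundant canonical genes per length. Rps29 (10170 and 4121 reads) was 2.35-fold, Rps3a1 (12677 and 4977 reads) 2.43-fold, Rps13 (9934 and 3289 reads) 2.88-fold and Rps25 (14298 and 4718 reads), which viral internal ribosome entry sites use, 2.89-fold higher.

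Levels per transcript length were compared as deposited RPKM, the reads of a gene scaled by its model length and by the header total of the library. The canonical genes had a median of 683 RPKM in the tumour (54.2 to 2262) and 144 RPKM in the normal library (17.8 to 403). All 77 had a higher RPKM in the tumour. The 3 highest in the tumour were Rps12 (2262 RPKM, against 252 in the normal library), Rplp1 (2040 against 403) and Rpl12 (1995 against 187). In the normal library the order was Rplp1, Rps27 (340 RPKM, with 1478 in the tumour) and Rps21 (310 RPKM, with 1180 in the tumour). Rps12 and Rpl12 stood at ranks 9 and 23 of the 85 genes in the normal library.

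Otherwise the order of levels was much the same in both libraries. Spearman's correlation of RPKM between them was 0.906 across the 77 canonical genes and 0.628 across all measured genes. This is a description across genes, which share the libraries and, in RPKM, the transcript lengths of the table. The ratio did not follow the level in the normal library (rho -0.02) and followed transcript length little (rho 0.14). Some low RPKM values go with long deposited models, such as Rps15a, with 5129 bases and 93.4 RPKM in the tumour and 17.8 RPKM in the normal library, where it was lowest. Rps16, the lowest in the tumour (54.2 RPKM, with 21.9 in the normal library), has a model of 610 bases.

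**Figure D3:**
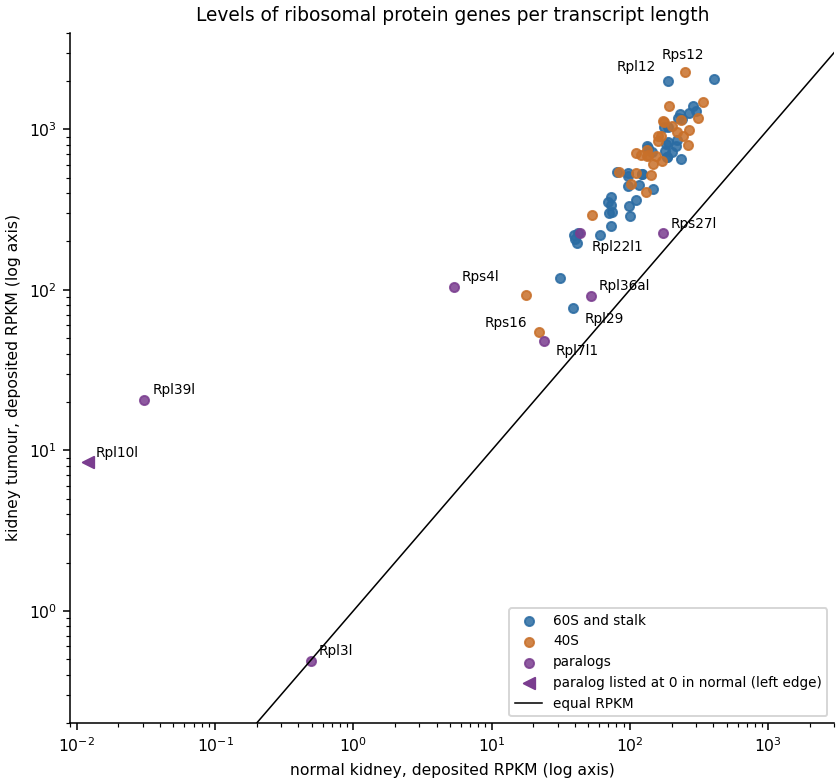
Deposited RPKM of the 85 genes, tumour on the vertical and normal kidney on the horizontal axis, both logarithmic. Large subunit and stalk genes are blue, small subunit genes orange and paralogs purple, the triangle at the left edge is Rpl10l, listed at 0 in the normal library, and the line marks equal RPKM. Canonical genes form a narrow band above the line, and Rpl39l, Rpl10l and Rps4l lie to its left.

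The 8 paralogs did not move as a group. Of 8, 4 were called higher in the tumour library (Rpl39l, Rpl10l, Rps4l and Rpl22l1), against 31.2% of all measured genes, 0 lower, against 28.0%, and 4 neither, with a median log2 ratio of 1.34. Their log2 ratios spread between -0.36 and 9.04, an interquartile range of 4.24, against 0.50 for the canonical genes. The upper quartile of the paralogs, 4.58, takes Rpl10l at a bound, so their interquartile range depends on it. Because a paralog and its canonical partner come from the same libraries, the difference between their log2 ratios of counts is the same under any scaling factor of the libraries.

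Rpl39l and Rpl10l had the highest ratios, and their order cannot be told because they rest on 1 and 0 reads in the normal library. Rpl39l is known mainly from the male germ line, where it replaces the small exit tunnel protein Rpl39. Rpl39l (chromosome 16, 10170228 to 10174911) had 550 reads in the tumour and 1 read in the normal library, a ratio of 525-fold with a counting interval of 93.8 to 20761 that reflects the single read. Rpl39, on the X chromosome (37082520 to 37085184), had 10855 and 2960 reads and was 3.50-fold higher (3.36 to 3.65). In RPKM, Rpl39l made up 2.41% of the pair in the tumour and 0.0165% in the normal library. Of the pair's reads it had 4.82% in the tumour (Clopper-Pearson interval 4.44% to 5.23%) and 0.0338% in the normal library (0.000855% to 0.188%). The coding sequences, from the GENCODE M21 annotation, are shown because they bear on whether the reads of the pair can be told apart. Each has 156 bases, and capitals mark the 23 bases at which they differ.
Rpl39l: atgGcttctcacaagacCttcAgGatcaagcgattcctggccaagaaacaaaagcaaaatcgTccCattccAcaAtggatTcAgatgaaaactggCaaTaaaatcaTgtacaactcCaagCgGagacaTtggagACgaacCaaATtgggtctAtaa
Rpl39: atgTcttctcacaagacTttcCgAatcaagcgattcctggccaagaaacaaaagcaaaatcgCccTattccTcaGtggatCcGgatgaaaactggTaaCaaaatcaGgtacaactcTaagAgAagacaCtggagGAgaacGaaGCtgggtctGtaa
The longest identical stretch of the pair is 38 bases, and 0 of the 50-base words of Rpl39l occur in any other annotated transcript of the same release.

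In mice the intronless Rpl10l stands in for the X-linked Rpl10 during male meiosis, when the X chromosome is silenced. Rpl10l (chromosome 12, 66283379 to 66284401) had 285 reads in the tumour and 0 reads in the normal library, which makes it at least 90.6-fold higher by a floor of 3 counts in the normal library, with a lower counting limit of 73.2-fold. Rpl10 itself had the lowest ratio of the canonical genes that were called. Rpl10l made up 1.28% of the pair's RPKM in the tumour and was listed at 0 in the normal library, where the floor of 3 counts equals 0.0405% of the pair's reads and the upper Clopper-Pearson limit is 0.0498%. Of 6 germ line markers 3 were called higher in the tumour, the only 3 of the list with at least 20 reads. Dazl had 1045 reads in the tumour and 1 in the normal library, Sycp3 286 and 4, and Ddx4 171 and 6, whereas Tnp1 of spermatids had 2 and 0 reads and Prm1 and Acrv1 had 0 in both. The list summed to 59.5 CPM in the tumour and 0.456 CPM in the normal library. Its part in the Rpl39l and Rpl10l values was not tested.

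Rps4l, related to the X-linked Rps4x, had 3263 reads in the tumour and 202 in the normal library and was 15.4-fold higher (13.4 to 17.9). GENCODE M21 lists this gene (chromosome 6, 148354656 to 148355596) as a transcribed processed pseudogene. Rps4x had 25995 and 5897 reads and was 4.21-fold higher. Rps4l made up 10.4% of the pair's RPKM in the tumour and 3.07% in the normal library.

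Rpl22l1 moved with its partner. In mice Rpl22l1 takes over when Rpl22 is lost, and Rpl22 represses its expression. Rpl22l1 (chromosome 3, 28805511 to 28807415) had 3530 reads in the tumour and 826 in the normal library and was 4.08-fold higher (3.78 to 4.40), and Rpl22 had 13950 and 3571 reads and was 3.73-fold higher (3.59 to 3.87). It was the only paralog above its partner per length, with 225 RPKM against 196 for Rpl22 in the tumour and 43.2 against 41.1 in the normal library. Its share of the pair's RPKM was 53.5% in the tumour and 51.2% in the normal library. These values depend on the deposited models, which have 473 bases for Rpl22l1 and 2149 for Rpl22. By reads Rpl22l1 was the smaller of the pair, with 20.2% of the pair's reads in the tumour and 18.8% in the normal library.

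The remaining 4 paralogs were not called, and the partner of each was called higher. Rpl7l1 was called higher with plain CPM, header totals and RPKM plus 0.1, and Rpl36al with plain CPM. Rps27l, a p53 target in human and mouse cells, had 3419 reads in the tumour and 3244 in the normal library, a ratio of 1.005 (0.958 to 1.06), while Rps27 had 16764 and 4705 reads and was 3.40-fold higher. Its share of the pair's RPKM was 13.2% in the tumour and 33.9% in the normal library, and its share of the pair's reads 16.9% (16.4% to 17.5%) and 40.8% (39.7% to 41.9%). Rpl36al, related to the X-linked Rpl36a, had 1572 and 1088 reads, a ratio of 1.38 (1.28 to 1.49), and made up 14.5% and 39.5% of its pair. Rpl7l1 had 4127 reads in the tumour and 2506 in the normal library, a ratio of 1.57 (1.495 to 1.65), beside 35285 and 8942 reads for Rpl7, which was 3.76-fold higher. Its share was 4.0% in the tumour and 9.08% in the normal library.

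Rpl3l, the paralog of striated muscle, was near absent, with 22 reads in the tumour and 27 in the normal library (ratio 0.777, 0.422 to 1.42), and made up 0.0623% and 0.365% of the RPKM of its pair with Rpl3. The sign of its log2 ratio, which is -0.36, turned with plain CPM (0.19). Markers of striated muscle were called higher in the tumour for 4 of 8 genes, the only 4 with at least 20 reads, and summed to 161 CPM in the tumour and 12.4 CPM in the normal library. Most of that sum was Ttn (3784 and 275 reads), whereas Ckm had 3 and 0 reads and Myh2 had 0 in both. Their part in the Rpl3l value was not tested.

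**Figure D4:**
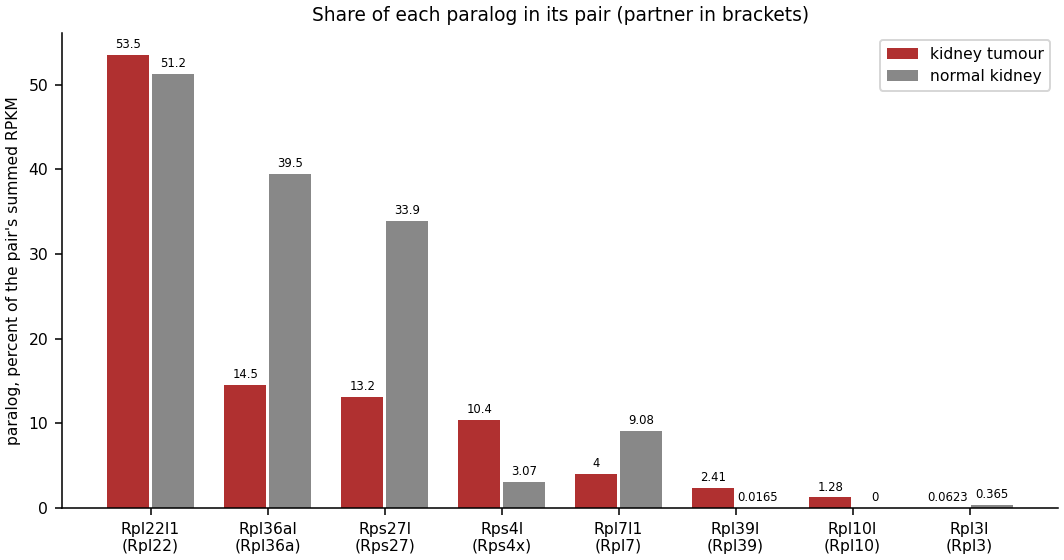
Share of each paralog in the summed RPKM of the paralog and its canonical partner (in brackets), in percent, with the tumour library in red and the normal library in grey. The shares of Rpl36al, Rps27l, Rpl7l1 and Rpl3l are lower in the tumour, and those of Rps4l, Rpl39l, Rpl10l and, slightly, Rpl22l1 are higher.

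Set against their partners on the log2 scale, the ratio was larger for the paralog by 7.23 for Rpl39l, by 5.38 (a bound) for Rpl10l, by 1.87 for Rps4l and by 0.13 for Rpl22l1. The values of Rpl39l and Rpl10l rest on 1 and 0 reads in the normal library and shrink to 2.24 and 1.76 when 1 is added to the RPKM. The difference was -1.26 for Rpl7l1, -1.76 for Rps27l, -1.94 for Rpl36al and -2.56 for Rpl3l. In all 4 pairs with an X-linked canonical gene the paralog is autosomal, and of these paralogs Rpl39l, Rpl10l and Rps4l were above their partner's ratio and Rpl36al below. Nucleotide identity of the pairs ran between 56.7% (Rpl7l1 and Rpl7) and 87.9% (Rpl36al and Rpl36a), and the longest identical stretch in any pair was that of Rpl39l. In every pair, 0 of the partner's 50-base words were shared.

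Reads of many canonical genes are less easily placed, since processed pseudogenes carry copies of their mRNAs, and the sources used here do not say how the authors treated reads with several matches. Of the 50-base words of a canonical coding sequence, a median of 90.3% (0 to 100%) occurred in other annotated genes, and a median of 9 other genes shared at least 1 word, with a maximum of 120 for Rpl7a. The 40 genes with over 90% of shared words had a median log2 ratio of 1.79. Rps3, with 8.05% of shared words, had 42423 reads in the tumour and 10064 in the normal library and was 4.02-fold higher (3.94 to 4.11). Rpl8, with 8.69%, had 36021 and 9188 reads and was 3.74-fold higher, and Rpl41, with 4.35%, had 9918 and 3317 reads and was 2.85-fold higher. Across the 77 genes the correlation of ratio and shared percent was weak (rho -0.10). Rpl29, with 90.3%, and Rps16, with 100%, are among the genes with many shared words, as are Rpl12 and Rpl36al, each with 100%. So are Rpl28, Rps29 and the partners Rpl36a, Rpl10 and Rps27, each with 100%. The values of these genes, and the differences of their pairs, are uncertain in this respect, as are those of other genes with high shares. The same holds for the paralog Rpl22l1, with 81.9%, against 30.8% for its partner Rpl22.

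Many ribosomal protein genes carry small nucleolar RNAs, guides for the chemical modification of ribosomal RNA, in their introns. Of the canonical genes, 30 held 58 annotated snoRNA genes within their span. Their median log2 ratio was 1.95, against 1.81 for the 47 genes without one.

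The start of the transcript was examined in RefSeq promoter windows of GRCm38.p6 (the assembly of mm10), which hold 250 bases before and 50 after the annotated start. Of the members, 62 had a window whose start lay within 100 bases of the start of the deposited model, 55 of them canonical and 7 paralogs. The 32851 promoters set beside them are all windows of this length, without that choice of start, so the sets are not alike in this respect. A C followed by at least 4 pyrimidines began exactly at the annotated start in 12 of 55 canonical genes (21.8%) and in 0 of 7 paralogs, against 2.51% of 32851 promoters. A run of at least 8 pyrimidines that begins with C lay within 20 bases of the start in 25 of 55 (45.5%) and 2 of 7, against 12.8% of all promoters. The canonical windows of Rpl28, Rpl35 and Rps27 are shown as examples of the tract at the start. Of the paralogs shown with them, Rpl22l1 has a run by the wider search only, and Rpl39l and Rpl10l have none by either search. Each has 40 bases before the start in lower case and the 20 bases from the start in capitals, on the transcribed strand.
Rpl28, chr7:4792925-4792984, plus strand: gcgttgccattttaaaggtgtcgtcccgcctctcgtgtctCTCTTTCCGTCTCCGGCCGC
Rpl35, chr2:39005112-39005171, minus strand: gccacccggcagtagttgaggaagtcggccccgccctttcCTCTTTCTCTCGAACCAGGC
Rps27, chr3:90213629-90213688, minus strand: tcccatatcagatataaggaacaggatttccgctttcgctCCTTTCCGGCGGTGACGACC
Rpl22l1, chr3:28805468-28805527, plus strand: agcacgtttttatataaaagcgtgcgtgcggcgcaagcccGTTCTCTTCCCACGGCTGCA
Rpl39l, chr16:10170188-10170247, plus strand: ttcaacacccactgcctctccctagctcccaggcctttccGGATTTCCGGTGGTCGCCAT
Rpl10l, chr12:66284382-66284441, minus strand: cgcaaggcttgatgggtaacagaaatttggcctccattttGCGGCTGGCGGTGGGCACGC

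The 12 canonical genes with the tract at the annotated start had a median log2 ratio of 2.03, and the other 43 one of 1.76, and all 12 and 42 of 43 were called higher. With the wider search the medians were 2.02 for the 25 genes that held a run and 1.68 for the other 30. An annotated start may lie some bases from the true one, so the exact search can miss a tract. The letters CTTTCC, on the transcribed strand between 20 bases before and 40 after the start, occurred in 12 of 55 canonical genes (21.8%), 2 of 7 paralogs and 2.76% of all promoters, and they overlap the pyrimidine tract in windows such as that of Rps27.

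Other motifs were searched on both strands of the whole window. CCGGAAGT, a core bound by ETS family factors, occurred in 11 of 55 canonical genes, 1 of 7 paralogs and 3.89% of all promoters. AAGATGGC, a core bound by Yy1, occurred in 5 of 55 (9.09%), 1 of 7 and 2.75%. CACGTG, the E-box bound by Myc and by the clock factors Clock and Arntl, occurred in 5 of 55 (9.09%), 0 of 7 and 7.15% of all promoters. TATAAA occurred in 6 of 55 (10.9%), 1 of 7 and 13.6%. The median log2 ratio was 1.75 for the 5 canonical genes with CACGTG and 1.81 for the 50 without. A match is a string of letters in a window and not a bound site.

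Some further proteins of the ribosome lie outside the naming pattern. Gnb2l1, which encodes the scaffold protein Rack1 of the small subunit, had 46271 reads in the tumour and 9560 in the normal library and was 4.62-fold higher (4.52 to 4.72). Fau, whose product is a ubiquitin-like fusion of a small subunit protein, had 5010 and 1977 reads and was 2.42-fold higher (2.29 to 2.55).

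The list of 20 other TOP mRNA genes, mostly translation factors, had 14 called higher (70%, against 31.2% of all measured genes), 0 lower (against 28.0%) and 6 neither, with a median log2 ratio of 1.36. With plain CPM, header totals or RPKM plus 0.1 all 20 were called higher, and 19 with RPKM plus 1. In the same order, 6876, 6194, 5936 and 4005 of all 16326 measured genes were called higher, against 5099 under TMM. Npm1, a nucleolar chaperone of ribosome assembly, had 57340 reads in the tumour and 4049 in the normal library and was 13.5-fold higher (13.1 to 13.95). Hnrnpa1, an RNA-binding protein (13029 and 1383 reads), was 8.99-fold higher, and Pabpc1, the poly(A)-binding protein (14542 and 2150 reads), 6.45-fold higher. The 3 lowest were the initiation factor subunits Eif3h (4097 and 2344 reads, ratio 1.67), Eif3l (8381 and 4746 reads, 1.69) and Eif2s3x (919 and 520 reads, 1.69). The interquartile range of this list, 1.41 on the log2 scale, was wider than the 0.50 of the canonical genes.

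The dedicated chaperones of single ribosomal proteins had 2 of 8 genes called higher (25%, against 31.2% of all measured genes) and 0 lower (against 28.0%), with a median log2 ratio of 0.77. The count called higher was 6 with plain CPM and 5 with the header totals or with RPKM. Of all 16326 measured genes, 6876 were called higher with plain CPM and 6194 with the header totals. With RPKM plus 0.1 and plus 1 they were 5936 and 4005. Grwd1, which accompanies Rpl3, had 2016 reads in the tumour and 364 in the normal library and was 5.28-fold higher (4.72 to 5.92). Ltv1, an assembly factor of the small subunit head, had 1631 and 664 reads and was 2.34-fold higher. Pdcd2, a chaperone of Rps2, had 775 and 414 reads, a ratio of 1.79, and was not called. At the low end Bccip, whose yeast relative is a chaperone of Rpl23, had 2176 reads in the tumour and 1412 in the normal library (ratio 1.47), Tsr2, a chaperone of Rps26, 647 and 568 (1.09) and Aamp, whose yeast relative is a chaperone of Rpl10, 3479 and 5223 (0.635).

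The list of the mTOR and S6 kinase arm includes Mtor and Larp1, whose products tune the translation of TOP mRNAs. The arm had 2 of 12 genes called higher (16.7%, against 31.2% of all measured genes), 1 lower (8.33%, against 28.0%) and 9 neither, with a median log2 ratio of 0.26. With plain CPM 4 were called higher, and 6876 of all 16326 measured genes. Eif4ebp1, the translation repressor that mTOR inactivates, had 1932 reads in the tumour and 244 in the normal library and was 7.55-fold higher (6.61 to 8.67). Larp1, which binds the TOP motif, had 7494 and 2829 reads and was 2.53-fold higher (2.42 to 2.64). Rptor, the partner of mTOR that recruits its substrates, had 1713 and 996 reads, a ratio of 1.64, and was not called. Mtor, the kinase itself, had 2949 reads in the tumour and 14125 in the normal library and was 5.02-fold lower (4.83 to 5.23). Rps6kb2, one of the S6 kinases (221 and 317 reads, ratio 0.665), and Tsc2, an inhibitor of the pathway (1842 and 2509 reads, 0.700), were not called.

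**Figure D5:**
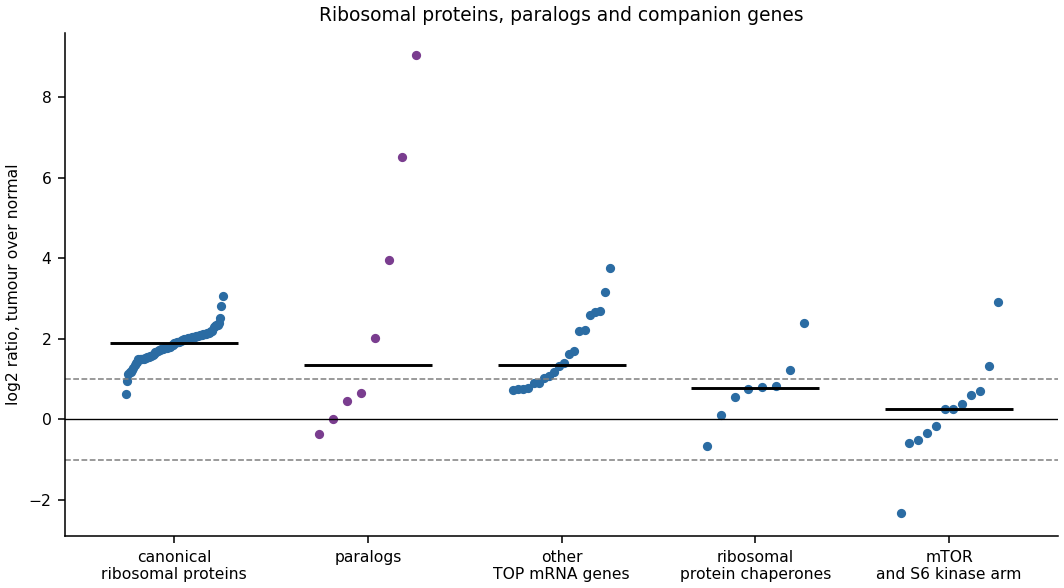
Log2 ratio, tumour over normal, of each canonical ribosomal protein gene, paralog and gene of 3 companion lists, with a point per gene and a black line at the median of each list. Dashed lines mark 2-fold in either direction, and Rpl10l is drawn at its bound of 6.50. The canonical genes are packed around 1.90, and the paralogs are spread widest, from -0.36 to 9.04.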

How the data were processed

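Whole tissue RNA of 1 kidney tumour and 1 normal kidney was sequenced after ribosomal RNA depletion with a strand-keeping kit, per the labels' protocols. For 32958 gene models the authors deposited exon read counts, as whole numbers, and RPKM values. The RPKM equalled counts over model length and header total (33169818 tumour and 40408775 normal reads, per the file headers) with a largest difference of 1.80e-06. Per the submitters' processing notes, the tools were bcl2fastq, HOMER and STAR 2.5.0c and the build mm10, with no role given. The strand setting of the counting and the read length are not given in the sources used here.

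The members, lists and tests were chosen with earlier results of these data known. Where several models shared a symbol (Rpl29 and Rps27 among the members), the 1 with most reads stood for it, and 3 models were dropped. TMM scaling (factors 1.21 tumour and 0.824 normal; edgeR 4.0.16, R 4.3.3) was computed over symbols with at least 20 reads over both libraries. Ratios have exact conditional (Clopper-Pearson) 95% intervals. These and the intervals of shares cover counting error only, since each group has 1 library. PCR copies are not told apart from molecules, so the intervals may be too narrow even for counting error. A count of 0 was set to a floor of 3 counts, 0.119 CPM in the tumour and 0.124 CPM in the normal library. CPM values are TMM-scaled. No test was made between single libraries. Named genes are all paralogs and partners, the stalk genes, Rpsa, Rps27a, Rpl5, Rpl11, Rps6, the 5 highest and 5 lowest ratios per subunit, the 3 highest RPKM per library, the other ribosome proteins and the 3 highest and 3 lowest of each companion list; some that the rule takes are not reported here. Genes singled out for shared sequence, Rps15a, and the search for CTTTCC and for the wider pyrimidine run, were chosen after the data had been seen. Protein identity was not computed. The interval and the calls were checked on simulated independent (Poisson) counts, the model that the interval assumes. That check covers the computation only, and not PCR copies, differences between animals or reads with several matches. Computations used Python 3.11.15, pandas 2.3.3, scipy 1.17.1, edlib 1.3.9.post1 and, for a scaling alternative, DESeq2 1.42.0.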

Additional observations from a re-analysis of the deposited data

How the results depend on the processing

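Other scalings moved all genes together. With RPKM a call rested on a ratio of 2-fold or more alone, without an interval, so all RPKM calls here follow a looser rule than the others. The log2 ratio of all measured genes, with a median of 0.08 under TMM, had one of 0.64 (plain CPM), 0.44 (header totals), 0.40 (RPKM plus 0.1), 0.24 (RPKM plus 1) and -0.016 (at least 100 reads). In the same 4 scalings the canonical median was 2.46, 2.25, 2.25 and 2.22 and the paralog median 1.90, 1.69, 1.69 and 1.66, and it was 2.03 for paralogs with at least 100 reads. In that order of scalings the medians were 1.83, 1.63, 1.63 and 1.62 for the other ribosome proteins, 1.92, 1.71, 1.71 and 1.68 for the other TOP mRNA genes, 0.82, 0.61, 0.60 and 0.54 for the mTOR arm and 1.33, 1.12, 1.11 and 1.04 for the chaperones. The canonical median stood 1.81 to 1.98 above that of all genes in all 8 alternatives (1.98 with RPKM plus 1 and 1.91 with at least 100 reads), and 75 to 77 canonical genes were called higher. Plain CPM, header totals and DESeq2 size factors multiply each library by a constant, so they could not change that difference of medians. Plain CPM and header totals also raise every ratio, so they could not lower the count or turn a canonical ratio negative. RPKM uses the header totals, with pseudocounts small beside the canonical levels. The read filters leave the canonical genes unchanged, and summing rows touches only Rpl29 and Rps27 among the members. DESeq2 size factors lie close to TMM. The count and the signs of the canonical genes were thus nearly fixed in advance, and their stability is no independent check. In the same 4 scalings 6876, 6194, 5936 and 4005 of all measured genes were called higher, against 5099 under TMM. Higher calls were 67.6% of all calls with plain CPM, and 2758 genes were called lower with RPKM plus 1, against 4566. Chaperones called higher numbered 6 with plain CPM and 5 with each of the other 3 scalings, and the mTOR arm to 4 with plain CPM. Rps16 was called higher in these 4 scalings (1.51, 1.31, 1.30 and 1.27), Rpl29 (1.20) and Rpl36al (1.02) with plain CPM, and Rpl7l1 (1.21 with plain CPM, and just over 1 with header totals and RPKM plus 0.1). No canonical gene changed sign in any alternative, and Rpl3l, called in none, was at 0.19 with plain CPM against -0.36. The difference of Rpl39l and Rpl39 was 2.24, and that of Rpl10l and Rpl10 1.76, with RPKM plus 1, since a pseudocount shrinks low values. DESeq2 size factors and summing rows of a symbol changed none of these calls.

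No paired analysis was possible because each group has 1 library and the labels give no replicate numbers. Leaving out a replicate was not possible for the same reason. Single reads limit Rpl39l and Rpl10l in the normal library, and sequence shared with other annotated genes limits most canonical genes. Whether reads were in fact shared was not tested.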
